A study of Schizosaccharomyces pombe with 8 samples.

Results

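Δ*top1* cells of fission yeast, *Schizosaccharomyces pombe*, were compared with wild-type cells after exposure to hydrogen peroxide, over all genes and in both directions. The comparison rests on 4 of the 8 libraries of the series, the columns labelled as treated deletion strain and treated wild-type, with 2 replicates in each strain. Wild-type was the strain 972 and Δ*top1* was RF14, an *h-* strain like 972 with a kanMX6 cassette at *top1*. The paper describes it as missing nearly all of the *top1* reading frame. A single constructed strain thus stands for the deletion. All cultures grew in the rich medium YE5S at 30 °C to an OD600 of 0.5. The treated ones received 1 mM H2O2 for 30 min. The other 4 libraries, from untreated cultures of the same strains, showed what the strains' ratio was before stress. They also entered the minimum-count filter and the shared estimate of spread behind the tests. The question set by the design is which transcripts a stressed cell holds at another level when topoisomerase I is missing.

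DNA topoisomerase I relaxes the supercoils that build up ahead of and behind a transcribing polymerase by nicking a single strand and letting it turn. In fission yeast, H2O2 sets off a broad transcriptional programme through the MAP kinase Sty1 with the factor Atf1 and through the redox-sensitive factor Pap1, in which genes of detoxification and protein folding rise and genes of ribosome production fall.

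Values are the deposited normalized counts of 5165 genes. The 8 libraries held between 16090015 and 19899720 reads on genes, and the normalized counts differ from reads only by a factor per library. The normalized counts of a library summed to 20029904 and 20768094 in the treated wild-type replicates and to 17657867 and 19121368 in treated Δ*top1*, groups that did not overlap. The *top1* gene itself had 2013 and 2513 in the wild-type replicates and 244 and 244 in Δ*top1* (log2 ratio -3.20, SE 0.12, adjusted p = 6.2e-06, by limma, with SE the standard error of the log2 ratio). Both deletion libraries lay far below both wild-type libraries, as the labels have it. In bulk cultures, fewer cells that express a gene and less of its RNA per cell cannot be told apart.

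Testing covered the 5019 genes whose mean over the libraries reached 10 normalized counts. Of these, 244 (4.86%) were higher and 227 (4.52%) lower in treated Δ*top1* than in treated wild-type, by limma on log2(normalized count + 1) at an adjusted p under 0.1 and at least 1.5-fold. On the adjusted p alone 31.8% of genes passed in either direction, and at an unadjusted p under 0.05 37.5%. Ratios are on the log2 scale with that pseudocount of 1, so a change in a gene with few reads is understated. Higher genes had a median log2 ratio of 0.90 and lower genes of -0.75, so most differences were modest, and 103 higher genes and 49 lower genes reached 2-fold. Before stress the same thresholds called 14 genes higher (0.279%) and 16 lower (0.319%), with 5.36% of genes at an unadjusted p under 0.05. Called in the same direction under peroxide were 8 of the 14 and 10 of the 16, and the median untreated ratio was 0.12 over the genes called higher under peroxide and -0.08 over those called lower. The difference between the ratios with and without peroxide, tested as an interaction of strain and treatment at an adjusted p under 0.1, was called for 107 genes upward (2.13%) and 92 downward (1.83%), in all 3.96%. Among these were 80 of the genes called higher and 60 of those called lower under peroxide. The calls leaned on a single library. Without replicate 1 of treated Δ*top1* they fell to 135 higher and 102 lower genes and the interaction to 19 genes, while without replicate 2 they came to 306 and 335, and the interaction to 374. Of the 244 and 227 genes, 127 and 86 were called without replicate 1. Leaving out a single untreated library brought the interaction to between 25 and 66 genes. With each library rescaled to the same total, the median of all genes moved from 0.01 to 0.16 and the calls to 474 higher and 111 lower.

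**Figure D1:**
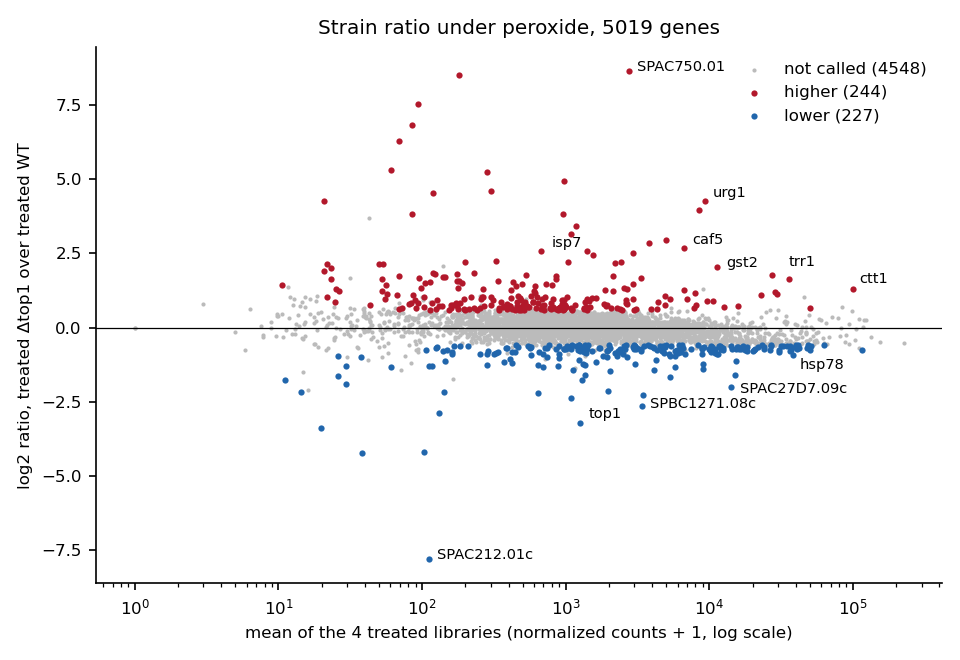
Log2 ratio of treated Δtop1 over treated wild-type for the 5019 genes tested (vertical axis) against the mean of the 4 treated libraries in normalized counts plus 1 (horizontal axis, log scale). Each point is a gene, red for the 244 higher, blue for the 227 lower and grey for the rest. The highest ratios stand mostly at low counts, and lower genes are spread up to the highest counts.

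Exon length moved with the ratio. Lower genes had a median annotated exon length of 1410 bases, all genes tested of 1700 and higher genes of 1827. Among the 1000 genes with the longest exons, from 2718 bases up, 65 were higher and 16 lower with a median log2 ratio of 0.15, and among the 1003 with the shortest, up to 1023 bases, 44 were higher and 58 lower with a median of -0.07. The same groups had medians of 0.10 and -0.03 between the untreated strains, and the part of length in the results was not tested.

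Several enzymes that destroy peroxides or repair what they oxidize were higher in treated Δ*top1*. Of 27 tested genes for peroxide scavenging and the thioredoxin and glutaredoxin systems, 7 were higher and 0 lower, with a median log2 ratio of 0.20 against 0.01 over all genes. The 7 were *gst2*, *trr1*, *ctt1*, *gst4*, *srx1*, *mxr2* and *bcp1*, and 5 genes of the list were called without replicate 1 of treated Δ*top1*. Normalized counts of *ctt1*, the cytosolic catalase, were 50464 and 65380 in the wild-type replicates and 134273 and 147064 in Δ*top1* (log2 ratio 1.29, SE 0.14, adjusted p = 0.00174). Before stress they had been 4185 and 4476 in wild-type against 3243 and 3069 in Δ*top1*, so the deletion strain stood lower without stress and higher with it, and the interaction was called (log2 1.75, adjusted p = 0.013). Thioredoxin reductase, *trr1*, which keeps thioredoxin reduced, had 13649 and 21711 in the wild-type replicates and 49384 and 57857 in Δ*top1* (log2 ratio 1.64, SE 0.20, adjusted p = 0.00318). The same enzyme system's peroxiredoxin *tpx1* had 51593 and 77288 in the wild-type replicates and 91666 and 112452 in Δ*top1* and was not called at an adjusted p of 0.11.

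The glutathione S-transferases *gst2* and *gst4* join glutathione to reactive compounds. Counts of *gst2* were 7273 and 20005 in the wild-type replicates and 38744 and 43124 in Δ*top1* (log2 ratio 1.76, SE 0.52, adjusted p = 0.0465). Its wild-type replicates lay far apart. The strains did not overlap, as in 63.3% of all genes tested. The same held for all 244 higher and all 227 lower genes. Counts of *gst4* were 1109 and 1464 in the wild-type replicates and 2569 and 3415 in Δ*top1* (log2 ratio 1.22, SE 0.16, adjusted p = 0.00393). Sulfiredoxin, *srx1*, which restores overoxidized peroxiredoxin, had 6072 and 7369 in the wild-type replicates and 12688 and 12159.9 in Δ*top1* (log2 ratio 0.89, SE 0.14, adjusted p = 0.00715). The ratios of the 20 members that were not called ranged from *obr1* at 1.04 (adjusted p = 0.102) to *grx5* at -0.47 (adjusted p = 0.0677). Glutathione peroxidase *gpx1* had 49976 and 43175 in the wild-type replicates and 47447 and 46236 in Δ*top1*, which overlap, and the mitochondrial superoxide dismutase *sod2* 8332 and 8049 in the wild-type replicates and 7935 and 7492 in Δ*top1*. These 4 were named after their values were seen.

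A CRE, the letters TGACGT to which Atf1 can bind, stood in the promoter of *ctt1*, and the letters TTACTAA of a Pap1-type element in those of *srx1* and *gst2*. Promoters here are the 250 bases before and 50 after a gene's annotated start in RefSeq's assembly ASM294v3, searched on both strands. The stretches below show the matches in capitals, 5′ to 3′ on the gene's strand, because they belong to enzymes of the list that were called higher. They lie at chrIII:58852-58927, minus strand for *ctt1*, at chrII:377155-377231, minus strand for *srx1* and at chrIII:2296191-2296267, minus strand for *gst2*.
ctt1: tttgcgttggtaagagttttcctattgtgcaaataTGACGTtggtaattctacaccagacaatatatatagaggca
srx1: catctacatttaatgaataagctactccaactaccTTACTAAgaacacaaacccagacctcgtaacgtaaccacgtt
gst2: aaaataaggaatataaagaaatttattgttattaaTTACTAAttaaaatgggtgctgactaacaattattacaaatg
The match ended 54, 178 and 121 bases before the annotated start, in that order. Of the 7 higher genes of this list 4 held a Pap1-type match, against 6 of the 20 others and 613 of 5128 promoters in all. The median log2 ratio was 0.27 over the genes of the list with a match and 0.20 over those without.

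Reductases that clear aldehydes and other carbonyls were called more often than any other list with 20 or more tested genes. Of 22 tested glyoxalases, aldo-keto reductases and short chain dehydrogenases, 11 were higher and 2 lower, with a median log2 ratio of 0.60, and 8 genes of the list were higher without replicate 1 of treated Δ*top1*. The alcohol dehydrogenase *adh8* had 773 and 957 in the wild-type replicates and 4569 and 3418 in Δ*top1* (log2 ratio 2.20, SE 0.17, adjusted p = 2.2e-04), and its interaction was called (log2 1.93, adjusted p = 0.013). The short chain dehydrogenase SPCC663.08c had 585 and 2066 in the wild-type replicates and 7305 and 10018 in Δ*top1* (log2 ratio 2.96, SE 0.62, adjusted p = 0.0165). In both genes the lowest deletion library stood well above the highest wild-type library.

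The Hsp31 family of glyoxalases, which convert methylglyoxal without glutathione, split. Levels of *hsp3105*, *hsp3102*, *hsp3103* and *hsp3104* were higher, with log2 ratios of 1.70, 1.00, 0.72 and 0.67. The remaining paralogue *hsp3101* was lower, with 24272 and 20582 in the wild-type replicates and 8129 and 6859 in Δ*top1* (log2 ratio -1.58, SE 0.11, adjusted p = 2.0e-04). It lies 47.3 kb from an end of chromosome III and was already lower before stress, with 540.3 and 567 in wild-type against 272 and 253 in Δ*top1* (log2 ratio -1.07, SE 0.11, adjusted p = 0.00396). The highest fitted ratio of the list and of all genes tested was that of SPAC750.01, an aldo-keto reductase gene 22.4 kb from an end of chromosome I, with 13.1 and 12.4 in the wild-type replicates and 4737 and 6177 in Δ*top1* (log2 ratio 8.62, SE 0.24, adjusted p = 9.6e-07). Before stress it had 4.97 and 5.65 in wild-type against 690.3 and 1090.4 in Δ*top1*, and it shares 37.6% of its 31-base words with other genes, so some of its reads cannot be told apart from those of copies.

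**Figure D2:**
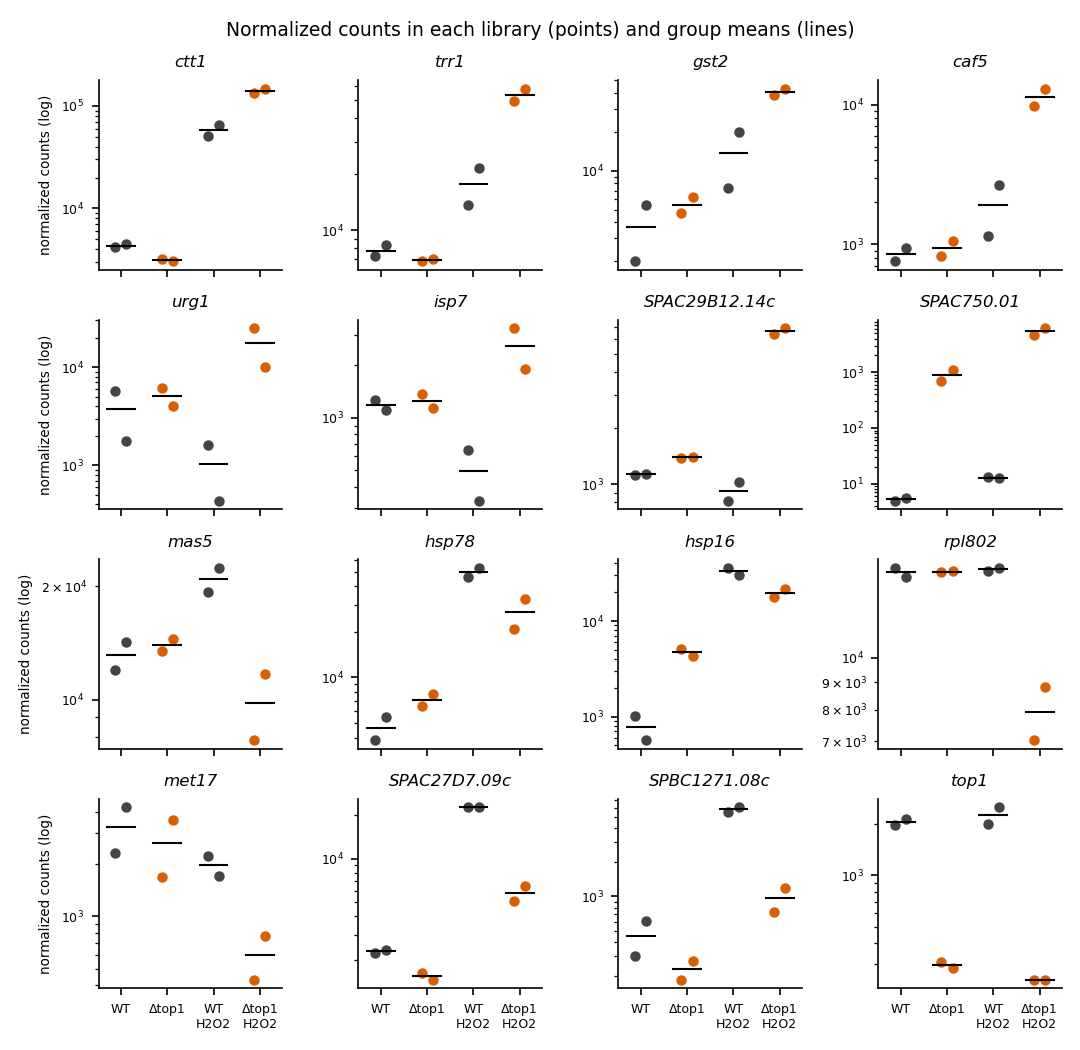
Normalized counts of 16 genes in each of the 8 libraries (log axis, which differs between panels), grey for wild-type and orange for Δtop1, with points for the replicates and a line at the group mean. In treated Δtop1 the 8 genes of the upper rows exceed every wild-type library, whereas mas5, hsp78, hsp16 and rpl802 lie below both treated wild-type libraries.

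Transporters were called in both directions, 18 higher and 13 lower of 175 tested (10.3% and 7.43%, against 4.86% and 4.52% of all genes), with a median log2 ratio of 0.04. Without replicate 1 of treated Δ*top1* 9 were higher and 8 lower, and with the libraries rescaled to the same total 30 and 9, at a median of 0.19. The polyamine and drug exporter *caf5* had 1151 and 2669 in the wild-type replicates and 9744 and 13013 in Δ*top1* (log2 ratio 2.68, SE 0.34, adjusted p = 0.00366). SPAC29B12.14c, annotated as a purine transporter, had 818 and 1033 in the wild-type replicates and 6402 and 6863 in Δ*top1* (log2 ratio 2.85, SE 0.11, adjusted p = 6.3e-06). The replicates of each strain were close together, and the interaction was called (log2 2.54, adjusted p = 7.9e-04). Its untreated levels were 1120.4 and 1142 in wild-type against 1388 and 1407 in Δ*top1*, a ratio of 0.30 that was not called. The glutathione importer *pgt1* was higher at a log2 ratio of 0.97, and lumazine synthase, *rib4*, an enzyme of riboflavin synthesis, had 2825 and 6671 in the wild-type replicates and 16029 and 19626 in Δ*top1* (log2 ratio 2.03, SE 0.34, adjusted p = 0.00774). The promoters of *caf5* (chrII:3166476-3166552, plus strand) and *rib4* (chrII:1165164-1165304, plus strand) held Pap1-type letters, shown because both genes were called higher with the enzymes above.
caf5: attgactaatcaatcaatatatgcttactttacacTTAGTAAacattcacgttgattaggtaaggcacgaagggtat
rib4: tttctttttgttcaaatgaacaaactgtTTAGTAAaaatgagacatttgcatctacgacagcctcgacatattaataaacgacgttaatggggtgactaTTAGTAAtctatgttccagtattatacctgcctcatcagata
Read on the other strand, the capitals TTAGTAA are the letters TTACTAA.

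The *urg* genes had high ratios. The neighbours *urg1*, annotated as a GTP cyclohydrolase II, and *urg2*, a putative uracil phosphoribosyltransferase, are known for their rapid induction by uracil. Normalized counts of *urg1* were 1606 and 437 in the wild-type replicates and 25062 and 10123 in Δ*top1* (log2 ratio 4.25, SE 0.72, adjusted p = 0.00837). Those of *urg2* were 1627 and 549 in the wild-type replicates and 21830.3 and 9644 in Δ*top1* (log2 ratio 3.94, SE 0.60, adjusted p = 0.00586). Replicate 1 was the higher of each pair in both genes, and each deletion library was above each wild-type library. Before stress *urg1* had 5736 and 1761 in wild-type against 6097 and 3992 in Δ*top1*. Its treated level was thus below the untreated one in wild-type and above it in Δ*top1*. The interaction was not called for *urg1* (log2 3.61, adjusted p = 0.125) and was called for *urg2* (log2 3.64, adjusted p = 0.0795). Named after their values were seen, the third neighbour *urg3* and the uracil phosphoribosyltransferase gene *uck2* had ratios of 2.52 and 2.58, with called interactions (adjusted p = 0.0348 and 0.0314).

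Of 28 tested genes of nitrogen starvation and amino acid permeases, 8 were higher and 0 lower, with a median log2 ratio of 0.32. They were *isp7*, *ptr2*, SPAC1039.01, *ste11*, *put4*, *car1*, *per1* and *isp5*, and 5 genes of the list were called without replicate 1 of treated Δ*top1*. Counts of *isp7*, a 2-oxoglutarate-dependent oxygenase that acts on amino acid uptake, were 651 and 332 in the wild-type replicates and 3286 and 1920.4 in Δ*top1* (log2 ratio 2.43, SE 0.32, adjusted p = 0.00393). The peptide importer *ptr2* had 261 and 199 in the wild-type replicates and 1118 and 537 in Δ*top1* (log2 ratio 1.76, SE 0.29, adjusted p = 0.0076). In wild-type *ptr2* had stood at 2581 and 2784 before stress and in Δ*top1* at 2760.4 and 2611, so the level after peroxide was below the untreated level in each strain. The amino acid permease SPAC1039.01 had 361 and 415 in the wild-type replicates and 1443 and 1180.5 in Δ*top1* (log2 ratio 1.75, SE 0.14, adjusted p = 2.6e-04), and its interaction was called (log2 1.78, adjusted p = 0.00955). Counts of *ste11*, the HMG-box factor that starts sexual differentiation, were 38.1 and 52.2 in the wild-type replicates and 159 and 129 in Δ*top1* (log2 ratio 1.66, SE 0.26, adjusted p = 0.00629), against 622 and 394 in untreated wild-type and 695 and 529 in untreated Δ*top1*.

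GATA factors regulate nitrogen genes in yeasts, and the letters GATAAG stood in 10 of 28 promoters of this list, against 590 of 5128 in all (11.5%). Among the 8 higher genes 4 held them, and among the 20 others 6. The promoters of *isp7* (chrI:4183045-4183232, minus strand) with 3 matches and of the proline transporter *put4* (chrI:5492914-5493076, plus strand) with 2 are shown for these genes, with log2 ratios of 2.43 and 1.00. The second was chosen after its values were seen.
isp7: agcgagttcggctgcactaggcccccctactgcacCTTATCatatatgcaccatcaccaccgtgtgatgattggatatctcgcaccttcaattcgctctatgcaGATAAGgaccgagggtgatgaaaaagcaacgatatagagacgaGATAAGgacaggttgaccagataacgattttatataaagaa
put4: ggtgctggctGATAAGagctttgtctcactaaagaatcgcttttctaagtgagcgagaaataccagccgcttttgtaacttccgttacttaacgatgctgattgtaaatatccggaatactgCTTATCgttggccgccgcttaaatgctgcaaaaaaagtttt
A match is a description of the letters, and binding was not measured in these libraries.

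Of 52 tested DNA repair and checkpoint genes, a list that by its name rule also holds the exocyst genes *exo70* and *exo84*, 5 were higher (9.62%, against 4.86% of all genes) and 0 lower, with a median log2 ratio of 0.19. Without replicate 1 of treated Δ*top1* 2 were higher. The 5 included *pol4*, *mag2*, *rad3* and *exo5*. The checkpoint kinase gene *rad3* had 858 and 1048 in the wild-type replicates and 1952 and 1768 in Δ*top1* (log2 ratio 0.97, SE 0.11, adjusted p = 0.0021), with a called interaction (adjusted p = 0.0537). The DNA-3-methyladenine glycosylase gene *mag2* had 154 and 301 in the wild-type replicates and 612 and 645 in Δ*top1* (log2 ratio 1.54, SE 0.41, adjusted p = 0.0345), and the repair polymerase *pol4* 44.6 and 62.1 in the wild-type replicates and 232 and 150.2 in Δ*top1* (log2 ratio 1.80, SE 0.43, adjusted p = 0.0238). Besides that of *rad3*, interactions called in the list included those of *rad54* and *rhp16*, which were downward. In the heterochromatin list of 24 genes, *clr4*, the histone H3 lysine 9 methyltransferase, and *dcr1*, Dicer, were higher at log2 ratios of 0.88 and 0.80 and 0 were lower. That is 8.33% of the list, against 4.86% of all genes, and the list's median was 0.15.

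Among 16 tested genes of iron and heme uptake, 3 were higher (18.8%, against 4.86% of all genes) and 0 lower, although the median ratio was 0.08. Without replicate 1 of treated Δ*top1* 1 was higher and 1 lower, and the median turned to -0.06. The siderophore transporter *str3* had 201 and 139 in the wild-type replicates and 552 and 459.5 in Δ*top1* (log2 ratio 1.58, SE 0.25, adjusted p = 0.00688). The heme receptor *shu1* had 93.6 and 63.3 in the wild-type replicates and 282 and 259 in Δ*top1* (log2 ratio 1.80, SE 0.66, adjusted p = 0.0863), few reads with a wide error. Of 22 tested *wtf* genes, the spore-killing drivers and antidotes, 4 were higher and 0 lower, and 0 were called without replicate 1 of treated Δ*top1*. The 4 are 18.2% of the list, against 4.86% of all genes. They have between 30.0% and 89.4% of their 31-base words in common with other genes, which leaves the placing of their reads uncertain. In the list of 5 galactose genes, the epimerase *gal10* (1.01) and the melibiase *mel1* (1.69) were higher, and *gal10* had been called before stress too (1.32). Of the 102 tested genes in the protein kinase list, which does not hold *rad3*, only *ppk8* was called. That is 0.98% of the list, against 4.86% of all genes called higher. Counts of *ppk8* were 1351 and 1535 in the wild-type replicates and 3822 and 3515 in Δ*top1* (log2 ratio 1.35, SE 0.10, adjusted p = 2.2e-04). Its interaction was called as well (adjusted p = 0.013).

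On the lower side, chaperones were called most often. Of 28 tested chaperone and co-chaperone genes 13 were lower and 0 higher, with a median log2 ratio of -0.61 and 25 of 28 ratios below 0. The 13 were *mas5*, *hsp20*, *hsp78*, *aha1*, *fes1*, *sti1*, *hsp90*, *hsp16*, *wis2*, *hsp104*, *mcp60*, *pss1* and *mge1*. The summed normalized counts of the list were 1222133 and 1347941 in treated wild-type and 778114 and 1031571 in treated Δ*top1*, which do not overlap. Replicate 1 of treated Δ*top1* was the lowest of the 4 libraries, and without it 3 genes were lower, with a median ratio of -0.40, and without replicate 2 20 were. With the libraries rescaled to the same total 9 genes were lower and 1 higher.

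Counts of the Hsp40 gene *mas5*, which hands clients to Hsp70, were 19310 and 22411 in the wild-type replicates and 7826 and 11752 in Δ*top1* (log2 ratio -1.12, SE 0.19, adjusted p = 0.00843). The small heat shock gene *hsp20* had 3366 and 3759 in the wild-type replicates and 1741 and 1800.2 in Δ*top1* (log2 ratio -1.01, SE 0.15, adjusted p = 0.00536). The mitochondrial disaggregase *hsp78* had 45784 and 53149 in the wild-type replicates and 20761 and 33233 in Δ*top1* (log2 ratio -0.91, SE 0.24, adjusted p = 0.0341), and *aha1*, an activator of Hsp90, 14785 and 14966 in the wild-type replicates and 6509 and 9868 in Δ*top1* (log2 ratio -0.89, SE 0.19, adjusted p = 0.0165). For *mas5* the treated deletion libraries were below even the untreated ones, at 13489 and 14534, whereas the other 3 genes stayed above their untreated levels in both strains.

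The interaction was called downward for 11 of the 28 and upward for 0. The largest was that of *hsp16*, a small heat shock gene named after its values were seen. Its counts before stress were 1006 and 566 in wild-type against 5133 and 4355 in Δ*top1* (log2 ratio 2.65, SE 0.24, adjusted p = 0.00141). Under peroxide they were 36157 and 30372 in the wild-type replicates and 17938 and 21483 in Δ*top1* (log2 ratio -0.76, SE 0.24, adjusted p = 0.0593), so the order of the strains turned over (interaction log2 -3.40, adjusted p = 0.00955). The Hsp70 gene *ssa1*, also named afterwards, had a ratio of 1.33 without and -0.67 with peroxide, neither of them called, and a called interaction (adjusted p = 0.0701). The heat shock gene *hsp9*, by contrast, had 86424 and 74974 in the wild-type replicates and 112486 and 121869 in Δ*top1*, a ratio of 0.54 that is under the fold threshold, and was past it with the libraries rescaled to the same total (0.69) or quantile normalized (0.65).

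**Figure D3:**
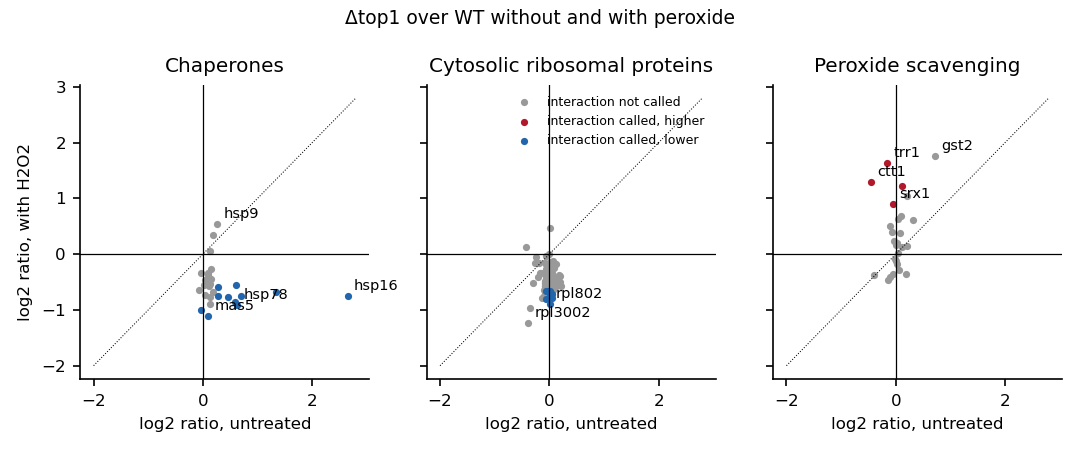
Log2 ratio of Δtop1 over wild-type without peroxide (horizontal axis) and with it (vertical axis) for the tested chaperones, cytosolic ribosomal proteins and peroxide scavenging genes, blue or red where the difference between both ratios was called. Most chaperones lie below 0 on the vertical axis, with hsp16 farthest to the right, ribosomal proteins lie below 0 close to the vertical line, and called scavenging genes lie above 0 close to it.

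Heat shock factor binds repeats of the letters GAA and their inverse. The arrangement GAANNTTC stood in 14 of the 28 chaperone promoters, against 576 of 5128 in all (11.2%). It was in 8 of the 13 lower genes and in 6 of the 15 others. The genes *hsp20* (chrIII:1365006-1365083, plus strand), *aha1* (chrII:2148940-2149017, plus strand), *hsp90* (chrI:3891154-3891231, minus strand) and *hsp16* (chrII:2661043-2661120, minus strand) are shown as examples of the lower chaperones, *hsp90* chosen like *hsp16* after its values were seen, with the match in capitals.
hsp20: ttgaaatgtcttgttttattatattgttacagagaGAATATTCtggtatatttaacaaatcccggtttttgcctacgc
aha1: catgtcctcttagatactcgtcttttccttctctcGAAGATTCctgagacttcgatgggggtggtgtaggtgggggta
hsp90: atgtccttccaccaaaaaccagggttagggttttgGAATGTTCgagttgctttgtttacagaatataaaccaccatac
hsp16: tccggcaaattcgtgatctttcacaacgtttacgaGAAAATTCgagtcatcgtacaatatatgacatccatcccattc
The median log2 ratio was -0.71 over the chaperones with a match and -0.51 over those without.

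Ribosomal protein genes were the largest group on the lower side. Of 141 tested cytosolic ribosomal protein genes 35 were lower and 0 higher, the median log2 ratio was -0.50, and 138 of 141 ratios were below 0. Their summed normalized counts were 3176351 and 3371757 in treated wild-type and 2080885 and 2605523 in treated Δ*top1*, or 15.9% and 16.2% against 11.8% and 13.6% of a library. In the 4 untreated libraries the sum lay between 3158808 and 3217701. Their totals over all genes, from 15174360 to 16345769, were below every treated total. The untreated share was thus larger, at 21% and 19.5% for the wild-type replicates against 20.1% and 19.8% for those of Δ*top1*. By share, the treated libraries of both strains lay below the untreated ones. By normalized counts only those of Δ*top1* lay below the untreated range. Replicate 1 of treated Δ*top1* was again the lower of the pair. Without it 9 genes were lower at a median of -0.33, without replicate 2 100 were, and with the same total 7 were lower and 1 higher. The genes are short, with a median exon length of 620 bases, and paralogous pairs can share reads. The part of length and of the library totals given above was not tested.

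Among single genes, *rpl802* had 14518 and 14724 in the wild-type replicates and 7027 and 8818 in Δ*top1* (log2 ratio -0.89, SE 0.12, adjusted p = 0.00403), against 14714 and 14146 in untreated wild-type and 14447 and 14512 in untreated Δ*top1*. It shares 18.9% of its words with other genes. Counts of *rps2202* were 8923 and 6518 in the wild-type replicates and 3957 and 3812 in Δ*top1* (log2 ratio -0.97, SE 0.15, adjusted p = 0.00671), and those of *rpl3002*, the lowest ratio of the list, 2234 and 1471 in the wild-type replicates and 766 and 765 in Δ*top1* (log2 ratio -1.24, SE 0.23, adjusted p = 0.0109). For *rpl102* they were 8923 and 7263 in the wild-type replicates and 4558 and 4646 in Δ*top1* (log2 ratio -0.81, SE 0.12, adjusted p = 0.00505). The interaction was called downward for 9 of the list, *rpl802* and *rpl102* among them.

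The HomolD box CAGTCACA takes the place of a TATA box in most ribosomal protein genes of fission yeast. It stood in 88 of the 141 promoters (62.4%), against 137 of 5128 in all (2.67%), with 24 of the 35 lower and 64 of the 106 other genes. The median ratio was -0.51 with the box and -0.49 without it. The promoters of *rpl3002* (chrI:5095892-5095969, minus strand), *rps2202* (chrI:1512398-1512475, minus strand) and *rpl102* (chrII:3060457-3060534, plus strand) are shown for 3 of the lower genes.
rpl3002: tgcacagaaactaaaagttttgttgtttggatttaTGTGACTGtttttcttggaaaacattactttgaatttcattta
rps2202: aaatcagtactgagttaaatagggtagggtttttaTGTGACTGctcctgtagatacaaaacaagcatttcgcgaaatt
rpl102: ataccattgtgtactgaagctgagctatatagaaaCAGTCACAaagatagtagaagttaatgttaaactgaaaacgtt
The first 2 hold it on the other strand, as TGTGACTG. The boxes ended 48, 43 and 50 bases before the annotated start. Of 148 tested ribosome biogenesis genes 11 were lower and 1 higher, with a median log2 ratio of -0.21. The share lower was 7.43%, against 4.52% of all genes. Without replicate 1 of treated Δ*top1* 4 were lower, and with the same total 2 were, at a median of -0.06. The interaction was called downward for 7 of the 148 and upward for 0, among them the rRNA processing genes *llp1* and *kri1* at log2 -0.98 and -0.74. Counts of *llp1* were 848 and 1115 in the wild-type replicates and 496 and 476 in Δ*top1* (adjusted p = 0.0034), against 2714 and 2496 in untreated wild-type and 2547 and 2599.8 in untreated Δ*top1*.

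Genes of amino acid synthesis were called lower as well. Of 59 tested genes 18 were lower and 0 higher, the median log2 ratio was -0.47, and 53 ratios were below 0. The branched-chain pathway supplied *leu2*, *ilv1*, *ilv3*, *ilv5*, *ilv6*, *leu3* and *eca39*. Counts of *leu2*, an isopropylmalate dehydratase, were 14323 and 11923 in the wild-type replicates and 6968 and 7761 in Δ*top1* (log2 ratio -0.83, SE 0.26, adjusted p = 0.0518), and those of chorismate synthase, *aro2*, 6999 and 7508 in the wild-type replicates and 3695 and 4870 in Δ*top1* (log2 ratio -0.77, SE 0.18, adjusted p = 0.024). Acetolactate synthase, *ilv1*, had a ratio of -0.77 and dihydroxy-acid dehydratase, *ilv3*, of -0.76. Without replicate 1 of treated Δ*top1* 1 gene was lower, at a median of -0.38, and with the same total 6 were. The interaction was called for 1 of the 59, *gln1*, glutamine synthetase, chosen after its values were seen. The list's summed counts were 664496 and 601640 in treated wild-type and 421115 and 459978 in treated Δ*top1*, which do not overlap.

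Nucleotide synthesis had 3 lower (15.8%, against 4.52% of all genes) and 0 higher of 19 genes, with a median ratio of -0.38. The median was -0.23 without replicate 1 of treated Δ*top1* and -0.53 without replicate 2. With the same total 1 gene was lower, at a median of -0.23. Dihydroorotate dehydrogenase, *ura3*, a step of the de novo pyrimidine pathway, had 5468 and 6458 in the wild-type replicates and 2977 and 3891 in Δ*top1* (log2 ratio -0.80, SE 0.14, adjusted p = 0.00873), and its interaction was called (adjusted p = 0.08). In the list of sulfur assimilation, homocysteine synthase, *met17*, had 2236 and 1714 in the wild-type replicates and 431 and 769.9 in Δ*top1* (log2 ratio -1.76, SE 0.42, adjusted p = 0.0239), against 2330.3 and 4252 in untreated wild-type and 1682 and 3588 in untreated Δ*top1*. Glycolysis had a median ratio of -0.34 and 0 lower genes of 20. Its 2 higher members were paralogues near chromosome ends, the enolase *eno102* (1.46) and the pyruvate decarboxylase *pdc102*.

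**Figure D4:**
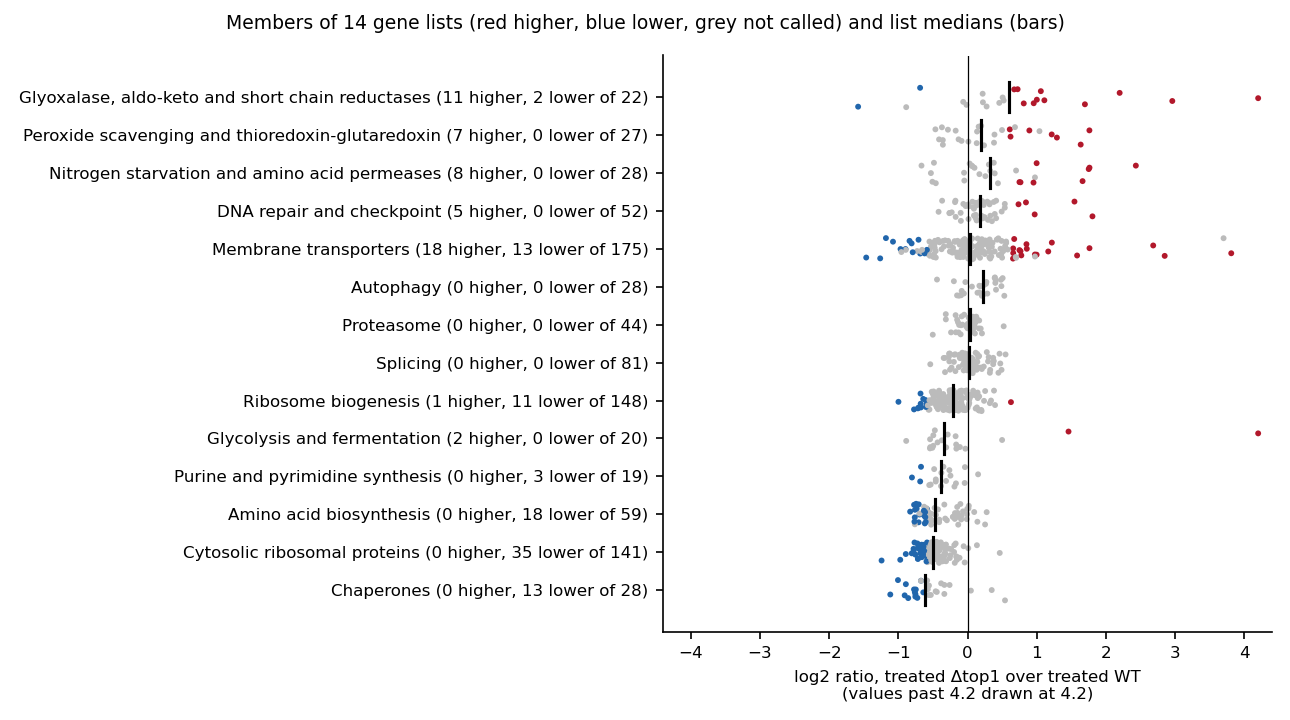
Log2 ratios of treated Δtop1 over treated wild-type for the tested members of 14 gene lists (points), red where called higher, blue where called lower and grey otherwise, with a bar at the median and the counts beside the name. Values past 4.2 are drawn at 4.2. Red points outnumber blue ones in the lists at the top, and the 3 lists at the bottom hold blue and no red points.

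Several of the lowest ratios belonged to genes of unknown role. SPBC1271.08c had 5527 and 6051 in the wild-type replicates and 729.8 and 1196 in Δ*top1* (log2 ratio -2.63, SE 0.35, adjusted p = 0.00392), against 298 and 610.4 in untreated wild-type and 187 and 273 in untreated Δ*top1*. The But2 family gene SPAC27D7.09c had 22756 and 22699 in the wild-type replicates and 5084 and 6467 in Δ*top1* (log2 ratio -1.99, SE 0.12, adjusted p = 7.2e-05), and its interaction was called (log2 -1.42, adjusted p = 0.013). The nearby SPAC27D7.11c, of the same family, had 8374 and 7891 in the wild-type replicates and 2699 and 2457 in Δ*top1* (log2 ratio -1.66, SE 0.09, adjusted p = 4.5e-05). It had been called lower before stress too, with 4173 and 4558 in wild-type against 2795 and 2896 in Δ*top1* (log2 ratio -0.62, adjusted p = 0.0231). In these 3 genes the strains lay much farther apart than the replicates. SPAC9G1.14 had 287 and 176 in the wild-type replicates and 42.8 and 57.9 in Δ*top1*, after at most 14.3 untreated, with an interaction of log2 -2.31. SPCC417.15 and the methyltransferase SPCC70.08c were lower at -2.20 and -2.12, and SPCC70.08c rested on wild-type replicates of 4913 and 1611. The mitochondrially encoded *cox2* had 76.2 and 18.6 in the wild-type replicates and 6.58 and 13.4 in Δ*top1*, too few reads for more than its adjusted p of 0.087.

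Single members of other lists were lower too. The glycerol dehydrogenase *gld1* had 964 and 1023 in the wild-type replicates and 357 and 445 in Δ*top1* (log2 ratio -1.31, SE 0.20, adjusted p = 0.00592), with a called interaction, and the glycerol-3-phosphate dehydrogenase *gpd2* a ratio of -0.89. Its stress-induced paralogue *gpd1* had 121162 and 111294 in the wild-type replicates and 117038 and 116608 in Δ*top1*, a log2 ratio of 0.01 with overlapping strains. Acid phosphatase, *pho1*, had 1758 and 1809 in the wild-type replicates and 941 and 1029 in Δ*top1* (log2 ratio -0.86, SE 0.10, adjusted p = 0.00291). Of 20 cell separation genes 3 were lower and 0 higher, and with the same total 1 was lower and 1 higher. They included *spo12* and *exg1*, with ratios of -0.68 and -0.64. The stress factor *atf1* had 8612 and 7997 in the wild-type replicates and 7938 and 8071 in Δ*top1*, which overlap, and *pap1*, named afterwards, 5883 and 5217 in the wild-type replicates and 4536 and 5222 in Δ*top1*.

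Among 27 DNA-binding transcription factors 5 were higher and 1 lower, with a median log2 ratio of -0.03. That is 18.5% and 3.7%, against 4.86% and 4.52% of all genes. Besides *ste11* the higher ones included *cbf12*, a CSL family factor, with 310.3 and 431 in the wild-type replicates and 706 and 843 in Δ*top1* (log2 ratio 1.07, SE 0.16, adjusted p = 0.0051). A further one of the 5, *hsr1*, which is also in the stress factor list, was higher at 0.94. The metallothionein gene *zym1*, whose product binds metal ions, had 6514 and 5341 in the wild-type replicates and 11368 and 8948 in Δ*top1* (log2 ratio 0.77, SE 0.16, adjusted p = 0.0164), and the polyubiquitin gene *ubi4* 38436 and 39486 in the wild-type replicates and 63067 and 60417 in Δ*top1* (log2 ratio 0.66, SE 0.17, adjusted p = 0.033). In contrast, the ubiquitin hydrolase *ubp11* was lower at -1.43. The vitamin B6 importer *bsu1* had 1863 and 716 in the wild-type replicates and 510.3 and 428 in Δ*top1*, with wild-type replicates far apart (adjusted p = 0.0379). The Golgi pyruvyl transferase *pvg1* had 8529 and 7160 in the wild-type replicates and 4315 and 4286 in Δ*top1* (log2 ratio -0.86, SE 0.10, adjusted p = 0.0023) and the sterol desaturase *erg32* a ratio of -0.76. The DNA end resection gene *ctp1*, the junction endonuclease gene *eme1* and the telomere cap gene *stn1* were higher at 0.74, 0.84 and 0.63.

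In 12 of the 54 lists no gene was called, although with the same total 5 of the 12 had called genes, such as splicing with 5 higher and autophagy and chromatin remodelers with 3 each. They include the proteasome (44 genes tested, median log2 ratio 0.04), splicing (81, 0.02), RNA polymerase II and mediator (24, -0.07), core histones (11, -0.14), chromatin remodelers (23, 0.19), autophagy (28, 0.22), actin and tubulin (18, -0.04) and the Tf2 retrotransposons (9, -0.09). Translation factors (50 tested, median -0.25) had 1 lower gene, *sce3*, and mitochondrial ribosomal proteins (78, 0.02) 1 higher gene, *mrpl17*.

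Genes near chromosome ends were called more often than the rest, and the counts in each direction differed by chromosome. Within 100 kb of an end 160 genes were tested, of which 45 were higher (28.1%) and 24 lower. Of the 4843 genes farther inside 4.09% were higher and 4.17% lower. On chromosome I 28 of 49 such genes were higher and 2 lower, with a median log2 ratio of 0.77. On chromosome II 14 of 47 were higher and 5 lower, with a median of 0.43, and on chromosome III 3 of 64 were higher and 17 lower, with a median of -0.23. Between the untreated strains the same genes of chromosome I were called higher 6 times and lower 1 time, those of chromosome II 2 and 0 times, and those of chromosome III 0 and 12 times. The interaction was called upward for 15 of the 160 and downward for 3.

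**Figure D5:**
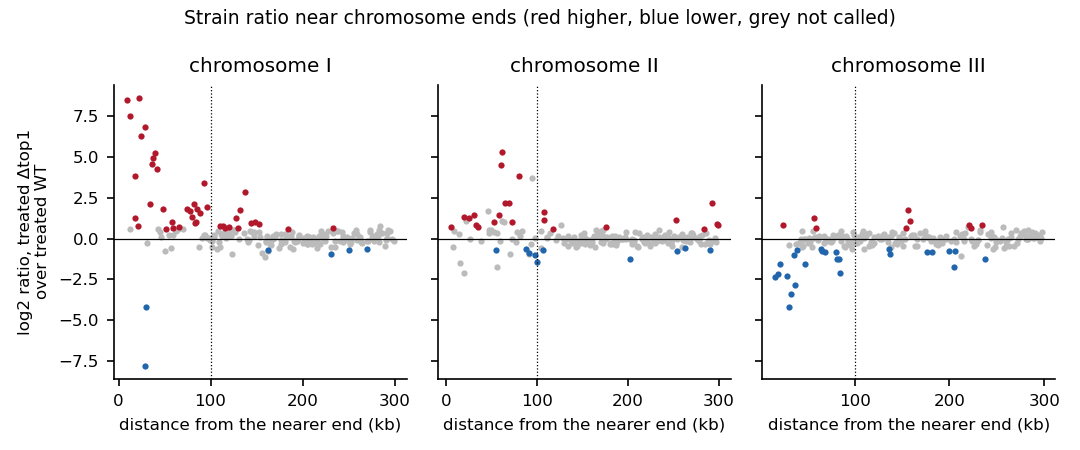
Log2 ratio of treated Δtop1 over treated wild-type (vertical axis) against the distance of a gene from the nearer end of its chromosome in kb (horizontal axis, up to 300), in a panel for each chromosome. Points are genes, red higher, blue lower and grey not called, and the dotted line marks 100 kb. Left of it red points outnumber blue ones on chromosome I, and blue ones outnumber red on chromosome III.

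At the right end of chromosome I, SPAC186.08c, annotated as an L-lactate dehydrogenase 29.1 kb from the end, had 1.09 and 0 in the wild-type replicates and 119 and 219 in Δ*top1* (adjusted p = 0.0015). Near it were *pdc102*, 24.6 kb from the end, with 2.18 and 0 in the wild-type replicates and 129 and 142 in Δ*top1* (adjusted p = 0.00366). With 2 wild-type reads or fewer, no fold is given for these genes. Before stress SPAC186.08c had 0.83 and 0 in wild-type against 14.3 and 18.7 in Δ*top1*, and *pdc102* 1.66 and 0 against 12.4 and 19.6. Neither gene was called then, and neither interaction was called. Farther in, *gdt1*, which encodes a GDT1-like protein, had 126 and 28.6 in the wild-type replicates and 1814 and 1938 in Δ*top1* (log2 ratio 4.93, SE 0.66, adjusted p = 0.00401), and it had been called before stress at 5.03. The neighbouring SPAC186.04c and SPAC186.06, an uncharacterized gene and an isomerase gene, were higher at 5.23 and 4.60, and both had been called before stress as well (adjusted p = 0.0175 and 0.0689), without a called interaction. Every wild-type library was at 0 for SPAC750.06c and *ftm4*. Both were called higher before stress too, with 134 and 152 and 92.4 and 126 in untreated Δ*top1*, and their interactions were not called. Taking 3 reads per library as the floor, treated Δ*top1* was at least 103-fold higher for the first and at least 53.0-fold for the second, whose 31-base words occur elsewhere to 93.7% and 95.3%. SPAC186.02c, a hydroxyacid dehydrogenase gene named after its values were seen, changed sign, with 13.3 and 6.59 in untreated wild-type, 0 reads in untreated Δ*top1*, and 50.1 and 49.7 in the wild-type replicates and 234 and 137 in Δ*top1* under peroxide (interaction adjusted p = 0.0155). In the other direction SPAC212.01c, near the left end, had 222 and 219 in the wild-type replicates and 0 and 0 in Δ*top1*, which is at least 66.5-fold lower, but all of its words occur in other genes. Also shared almost whole, at 97.7%, *ftm1* had 78.4 and 57.1 in the wild-type replicates and 0 and 12.2 in Δ*top1*.

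Chromosome II contributed the amino acid permease *nrg1*, with 171 and 82 in the wild-type replicates and 2343 and 1211 in Δ*top1* (log2 ratio 3.82, SE 0.40, adjusted p = 0.00146), and the poorly expressed SPBPB21E7.02c and SPBPB21E7.10 (4.52 and 5.30). Near the ends of chromosome III, SPCC1884.01 had 269 and 189 in the wild-type replicates and 34 and 26.7 in Δ*top1* (log2 ratio -2.86, SE 0.27, adjusted p = 8.7e-04), against 156 and 117 in untreated wild-type and 17.1 and 15.5 in untreated Δ*top1*. SPCP20C8.02c, SPCP20C8.01c (which has 91.6% of its words elsewhere) and SPCC569.01c were lower at -4.20, -2.28 and -2.37 and had been lower before stress at -4.69, -2.97 and -3.12, without a called interaction. The 3 higher genes near these ends were *ctt1*, 56.6 kb from the end, the cytochrome oxidase assembly gene *cox14* (0.66) and the spermidine family transporter SPCC569.05c (0.85). None of the 3 was called before stress, when their ratios were -0.46, -0.34 and -0.45.

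Over all called genes, Pap1-type letters stood in 47 of 243 promoters of higher genes (19.3%) and 23 of 226 of lower genes (10.2%), against 613 of 5128 in all. The HomolD box stood in 28 of 226 lower (12.4%) and 1 of 243 higher genes, against 2.67%. GAANNTTC stood in 40 lower (17.7%) and 27 higher genes (11.1%), against 11.2%. TGACGT, the CRE, was near its background in both, at 4.42% of lower and 6.17% of higher genes against 5.97%, and GATAAG stood in 27 of 226 lower and 34 of 243 higher genes, against 11.5%.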

How the data were processed

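RNA from 2 cultures of each strain and treatment was sequenced. The deposited values are a signal, the DESeq2 normalized counts that the authors made per gene. The submitters' processing notes name FastQC, Trimmomatic, STAR, HTSeq and DESeq2 with the build ASM294v2, whereas the study's methods name Salmon in place of STAR and HTSeq, so how reads were assigned to copies of a gene is unsettled here. Dividing a column by the value of 1 read gave whole reads, within 0.01, for 5164 of 5165 genes in every library (99.98%).

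Normalized counts were tested as log2(count + 1) with limma 3.58.1 (R 4.3.3), with a variance trend, on all 8 libraries and the 5019 genes averaging 10 or more, adjusted by Benjamini-Hochberg over all of them. Calls needed an adjusted p under 0.1 and 1.5-fold, and the interaction needed the adjusted p alone. P-values rest on the spread between 2 cultures per group, pooled over all groups and drawn toward the trend across genes. An exact permutation of 2 against 2 cannot go below p = 0.333 (two-sided). Count tests with edgeR 4.0.16 and DESeq2 1.42.0 of those whole reads, other pseudocounts, minimums, thresholds and scalings, the replicate block and single libraries left out served as alternatives. The procedure was tested on simulated data.

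Gene names came from RefSeq's ASM294v3 by identifier (5129 of 5165 matched), with positions and promoters from its own annotation. The share of 31-base words a transcript has in common with others marks genes whose reads could be split. Genes were named by rule: *top1*, genes the study discusses, the 15 largest ratios in each direction without overlap, and up to 4 called members of a list (the 2 with the most reads where none was called). Results for 2 genes so named are not reported here, and some others enter only their lists' counts. Genes outside this rule, such as further called members of a list or of the *urg* and Hsp31 groups, were named after their values were seen. Members and lists were chosen with earlier results of these data known, 18 list symbols had no match, and list medians carry no test.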

Additional observations from a re-analysis of the deposited data

Results flagged for a closer look

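For 39 of the 149 genes picked by the naming rule and reported here the ratio of Δ*top1* over wild-type differed between the treated and the untreated libraries, by limma's interaction term at an adjusted p under 0.1. The values below are that difference on the log2 scale, with peroxide minus without. It was called for 3.96% of all genes tested, and without replicate 1 of treated Δ*top1* for 19 genes in place of 199. No explanation was tested.

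Among enzymes of detoxification and redox repair the difference was 1.93 for *adh8*, 1.80 for *trr1*, 1.75 for *ctt1*, 1.10 for *gst4* and 0.94 for *srx1*. It was 2.20 for the glyoxalase gene *hsp3105* and 1.52 for the aldo-keto reductase SPAC750.01. Among transporters and uptake genes it was 3.24 for SPAC750.02c, all of whose 31-base words occur elsewhere, 2.54 for SPAC29B12.14c, 2.54 for *caf5*, 2.42 for *str3*, 1.79 for SPAC1039.01, 1.76 for *ptr2* and 1.00 for *pgt1*. Other metabolic genes with an upward difference between the ratios were *urg2* at 3.64, *isp7* at 2.35 and *rib4* at 2.20. Regulators and repair genes followed, with *ppk8* at 1.21, the transcription factor *cbf12* at 1.21 and *rad3* at 0.86. The remaining upward values were 1.56 for *mug108*, 1.00 for *cox14* and 0.67 for *mrpl17*.

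In the downward direction the difference was -1.54 for *hsp78*, -1.22 for *mas5* and -0.97 for *hsp20*, all chaperones. For genes of ribosomes, their production and translation it was -0.98 for *llp1*, -0.90 for *rpl802*, -0.75 for *rpl102*, -0.74 for *kri1* and -0.71 for *sce3*. For enzymes it was -1.17 for *gld1*, -1.20 for *ppp16*, -0.95 for *pho1*, -0.84 for *ura3* and -0.56 for the glucanosyltransferase *gas5*. The uncharacterized SPAC9G1.14 had -2.31, and the But2 family genes SPAC27D7.09c and SPAC27D7.11c had -1.42 and -1.04.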

How the results depend on the processing

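No gene called in the treated comparison was called the other way under any alternative. The 244 higher and 227 lower genes became 103 and 49 at 2-fold, 39 and 15 under limma's treat test against 1.5-fold, and 474 and 111 with every library rescaled to the same total, where 81.0% of calls were upward in place of 51.8%. Upper-quartile rescaling gave 290 and 186 (60.9% upward), edgeR 250 and 224, and DESeq2 249 and 232 on the recovered reads. Leaving out one library at a time gave 135 to 306 higher and 102 to 335 lower genes, with both ends set by the treated Δ*top1* replicates. The 199 genes with a strain by treatment interaction became 45 at an adjusted p under 0.05, 79 without a minimum mean, 130 after quantile normalization, 126 without the variance trend, 372 with DESeq2, and between 19 and 374 without a single library. The 14 genes higher before stress became 9 at 2-fold, 6 under treat, 25 with DESeq2 and 7 to 14 without a single library, and the 16 lower ones became 9 under treat. The cause of these changes was not tested.

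The libraries share only replicate numbers, which no label ties to a shared culture or day. Correlations of same-numbered deviations between groups were 0.617, 0.406, 0.369, 0.297, 0.233 and 0.066, all of them positive. The main tests did not pair same-numbered libraries, and whether these have a shared origin was not tested. With the replicate block 265 genes were higher and 253 lower under peroxide, 29 were higher before stress, and the interaction was called for 879 genes. Of the values for named genes and list medians, 4155 stayed as they were, 295 were no longer past the threshold, 13 newly passed it and 88 medians moved. With 2 replicates per group, differences in genes with few reads are the least certain.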
